A study of Homo sapiens with 24 samples.

Results

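Interferon-stimulated genes are the antiviral programme that cells switch on through interferon receptors. They were followed here as a list of 41 gene symbols in MCF10A, an immortal line of human breast epithelium that does not form tumours. All probes carrying a member's symbol in the platform annotation were taken, and a probe was used where its detection p-value was under 0.05 on 4 or more of the 24 arrays. Of 66 named member probes on the array, 54 passed, and they covered 39 genes, among 23019 probes of 12357 named genes that passed in the whole series. EPSTI1 had 1 named probe, which did not pass, and STAT2 was not analysed here. Among the 39 genes, 30 had 1 probe that passed and 9 had several.

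The study compared 3 stable MCF10A lines. CYT1 cells carried the CYT1 isoform of the receptor tyrosine kinase ERBB4, CYT2 cells carried the CYT2 isoform, and vector cells (VEC) carried a control vector. The series title describes the receptors as full length JM-a forms, whereas the sample characteristics add ICD to the isoform names. After 48 h of serum starvation, each line received the ERBB4 ligand neuregulin 1 (NRG1) or no ligand for 2 h. The 6 groups held 2 biological samples each, every sample was read on 2 technical arrays that were averaged, and all groups shared the starvation. Nothing in the labels says whether the 2 samples came from separate cultures or the lines from more than 1 clone, so the tests measure spread between samples that may be technical, and a difference between lines cannot be told apart from a difference between clones.

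Type I interferons bind the IFNAR1 and IFNAR2 receptor, whose kinases JAK1 and TYK2 phosphorylate transcription factors, among them STAT2. Together with IRF9, STAT2 takes part in the complex ISGF3, which binds an interferon-stimulated response element in target promoters. The products sense viral RNA, attach the ubiquitin-like protein ISG15 to other proteins, block viral entry, release or translation, and load peptides onto MHC class I. Many of them are transcribed at a low level without added interferon.

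The sequence searched for in these genes was that response element. Its core, GAAANNGAAA (TTTCNNTTTC on the other strand), was searched on both strands in the 250 bases before each RefSeq gene start (GRCh38.p14). Of the member genes, 34 had a promoter in the table and 22 of these (64.7%) held the core, as did 25 of their 45 listed promoters (55.6%), against 1061 of 35116 promoters of all genes (3.02%). The windows below are from members whose levels are given in detail, written 5′ to 3′ on the gene's strand with the core in capitals. Overlapping cores occur, and a match describes letters, not a bound site.
BST2 (chr19:17405741-17405770, minus strand): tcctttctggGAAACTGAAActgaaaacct
IFI27 (chr14:94110618-94110647, plus strand): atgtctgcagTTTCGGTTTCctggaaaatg
IFI6 (chr1:27672288-27672317, minus strand): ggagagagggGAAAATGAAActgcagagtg
DDX60 (chr4:168318786-168318815, minus strand): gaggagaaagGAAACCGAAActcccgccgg
ISG15 (chr1:1013374-1013403, plus strand): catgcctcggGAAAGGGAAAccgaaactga
IFITM1 (chr11:313990-314019, plus strand): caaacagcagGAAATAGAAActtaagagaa
The promoter windows of HERC6, IRF1, IRF9, OAS1, XAF1, UBE2L6, IFI35, SP110, PSMB8, PSMB9, DDX58 and STAT2 did not contain these letters.

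Each array detected between 18745 and 20370 probes, with a median signal of 114 to 126.3 units. The 7 named markers of basal mammary epithelium (among them KRT5, KRT14 and CDH1) were detected, with a mean log2 intensity of 11.49 to 11.79 in CYT1 samples, 11.57 to 11.70 in CYT2 samples and 11.58 to 11.90 in vector samples. Of the leukocyte markers, 3 of 6 (CD14, CD68 and LYZ) passed detection, the list's mean level spanning 5.61 to 5.76, 5.69 to 5.81 and 5.70 to 5.84 in CYT1, CYT2 and vector samples. None of the 3 endothelial markers passed, and 3 of 5 fibroblast markers did, at mean levels of 5.35 to 5.43, 5.30 to 5.48 and 5.28 to 5.43. These means include markers that did not pass. The probes that passed ran from 4.56 to 8.29 for the leukocyte list and from 4.75 to 7.92 for the fibroblast list. The named ERBB4 probe was detected on 0 of 16 arrays of the ERBB4 lines and 0 of 8 vector arrays, so the labels of the lines could not be checked by it. In these bulk samples a lower signal cannot be assigned to fewer expressing cells or to less RNA per cell.

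**Figure D1:**
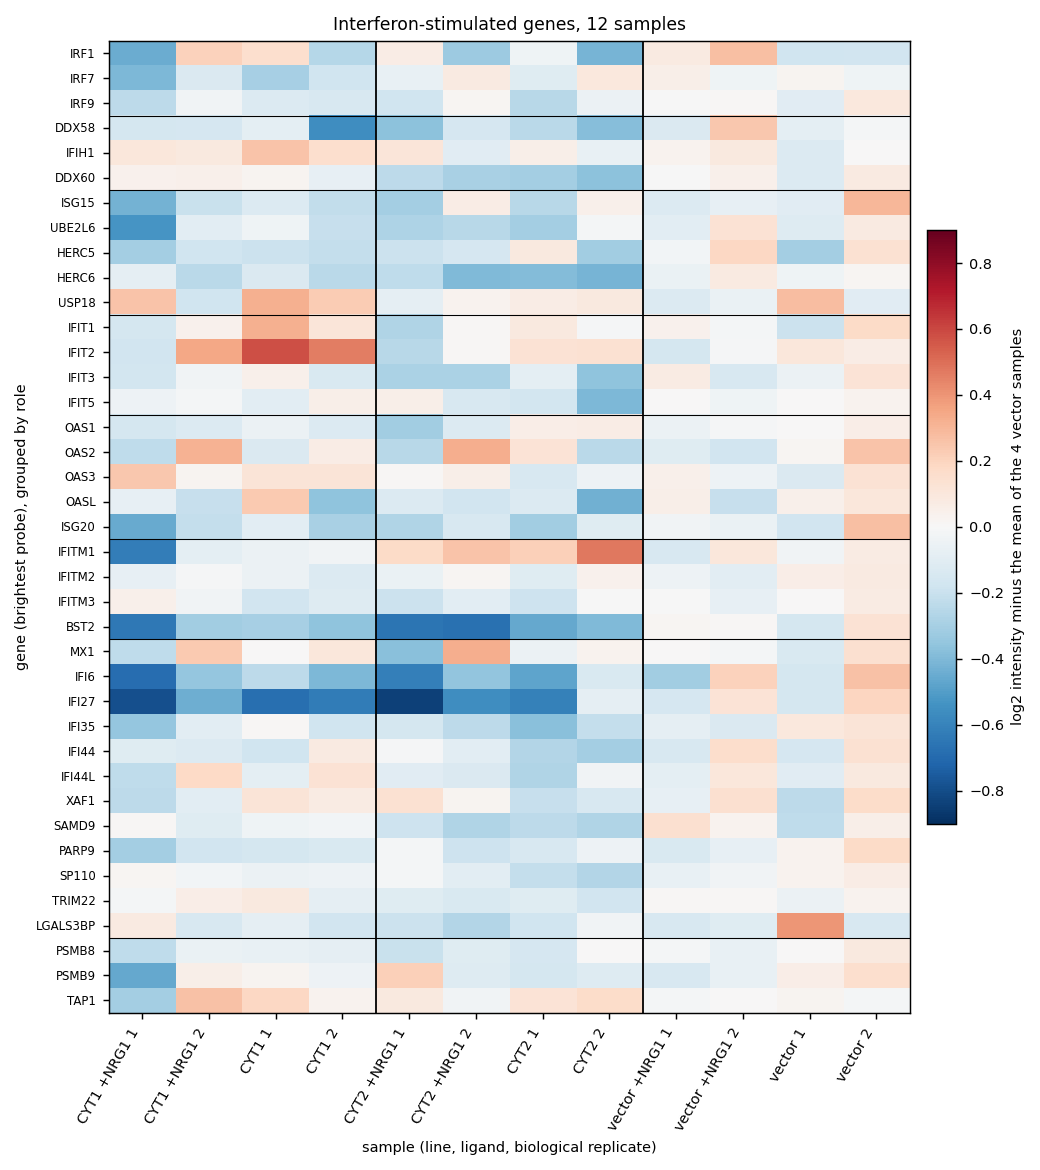
Log2 intensity of the brightest probe of 39 interferon-stimulated genes (down the page, grouped by role) in 12 samples (across), each shown as its difference from the mean of the 4 vector samples. The 4 CYT1 and 4 CYT2 samples are blue (lower) for BST2, and the 4 CYT1 samples and 3 of the CYT2 samples are clearly blue for IFI27, while most other genes are pale in every line.

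NRG1 for 2 h called no member probe in any line. The changes of the 54 probes ran from -0.43 (IFIT2) to 0.31 (IFI44L) on the log2 scale in CYT1 cells, from -0.38 (IFI6) to 0.38 (SP110) in CYT2 cells and from -0.28 (OAS2) to 0.35 (IRF1) in vector cells. The test was limma's moderated test with Benjamini-Hochberg adjustment over all 23019 probes, at an adjusted p under 0.05. Across all probes the share called was 0% in CYT1 cells, 0.977% in CYT2 cells and 0% in vector cells. At an unadjusted p under 0.05, 1 member probe was higher and 1 lower in CYT1 cells (6.72% of all probes passed), 1 was higher and 1 lower in CYT2 cells (9.53%), and none was in vector cells (4.34%). The median log2 change of the 54 probes was -0.06, 0.02 and -0.02 in CYT1, CYT2 and vector cells, where that of all probes was -0.01, -0.01 and 0.

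IFIT2 measured 6.70 and 7.22 (log2 intensity) in CYT1 cells with NRG1, against 7.45 and 7.33 in CYT1 cells without ligand. It was 6.62 and 6.88 in CYT2 cells with NRG1, against 7 and 7.01 without, and 6.71 and 6.86 in vector cells with NRG1, against 6.97 and 6.94 without. Both samples with ligand thus lay under both samples without it in each of the 3 lines. How many of all probes did the same was not counted, and IFIT2 was picked after its values were seen. The log2 differences were -0.43 ± 0.15 (SE, n = 2 per group; limma adjusted p = 0.644), -0.25 ± 0.15 (adjusted p = 0.666) and -0.17 ± 0.15 (adjusted p = 1), so none passed the test.

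IRF1, a transcription factor that interferon gamma induces, measured 8.63 and 9.29 in CYT1 cells with NRG1, against 9.23 and 8.82 without ligand. In CYT2 cells the values were 9.15 and 8.75 with NRG1, against 9.04 and 8.66 without, and in vector cells 9.16 and 9.35 with NRG1, against 8.90 and 8.91 without. The groups overlapped in both ERBB4 lines, and in vector cells the 2 ligand samples were above the others (0.35 ± 0.21 on the log2 scale; limma adjusted p = 1). Other members past an unadjusted p of 0.05 were 1 probe of IFI44L in CYT1 cells (0.31 ± 0.13; limma adjusted p = 0.726), 1 of the 4 probes of the nuclear body protein SP110 in CYT2 cells (0.38 ± 0.14; adjusted p = 0.327) and 1 of the 3 probes of OAS1 in CYT2 cells (-0.28 ± 0.10; adjusted p = 0.34). For SP110 and OAS1 the other probes changed by 0.13 to 0.19 and by -0.15 and 0, and the second, brighter probe of IFI44L by -0.05 (adjusted p = 0.968).

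The precision of these comparisons can be read from the 95% intervals of the changes. For each line, the interval of 54 of 54 member probes lay within a 2-fold change in either direction, and within 1.5-fold for 50 probes in CYT1, 48 in CYT2 and 51 in vector cells. Larger changes in the normalized values of these probes with NRG1 at 2 h are outside those intervals. Smaller ones were not resolved with 2 samples per group. The normalized values include an added offset of 16, which shrinks the fold changes of dim probes, including dim probes detected on every array. For dim probes the intervals therefore do not bound a fold change in RNA. For the 8 member probes detected on some arrays only, a level can be a bound, so their intervals do not bound a change in RNA. The change with NRG1 was also compared between lines. No member probe passed for CYT1 minus vector (background 0% of all probes; unadjusted, 0 of 54 against 5.4%), CYT2 minus vector (0.122%; unadjusted, 1 of 54 against 6.98%) or CYT1 minus CYT2 (0.00434%; unadjusted, 2 of 54 against 3.91%). In the last of these, XAF1, a pro-apoptotic interferon target, had the largest difference, -0.51 ± 0.19 on the log2 scale (limma adjusted p = 1).

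**Figure D2:**
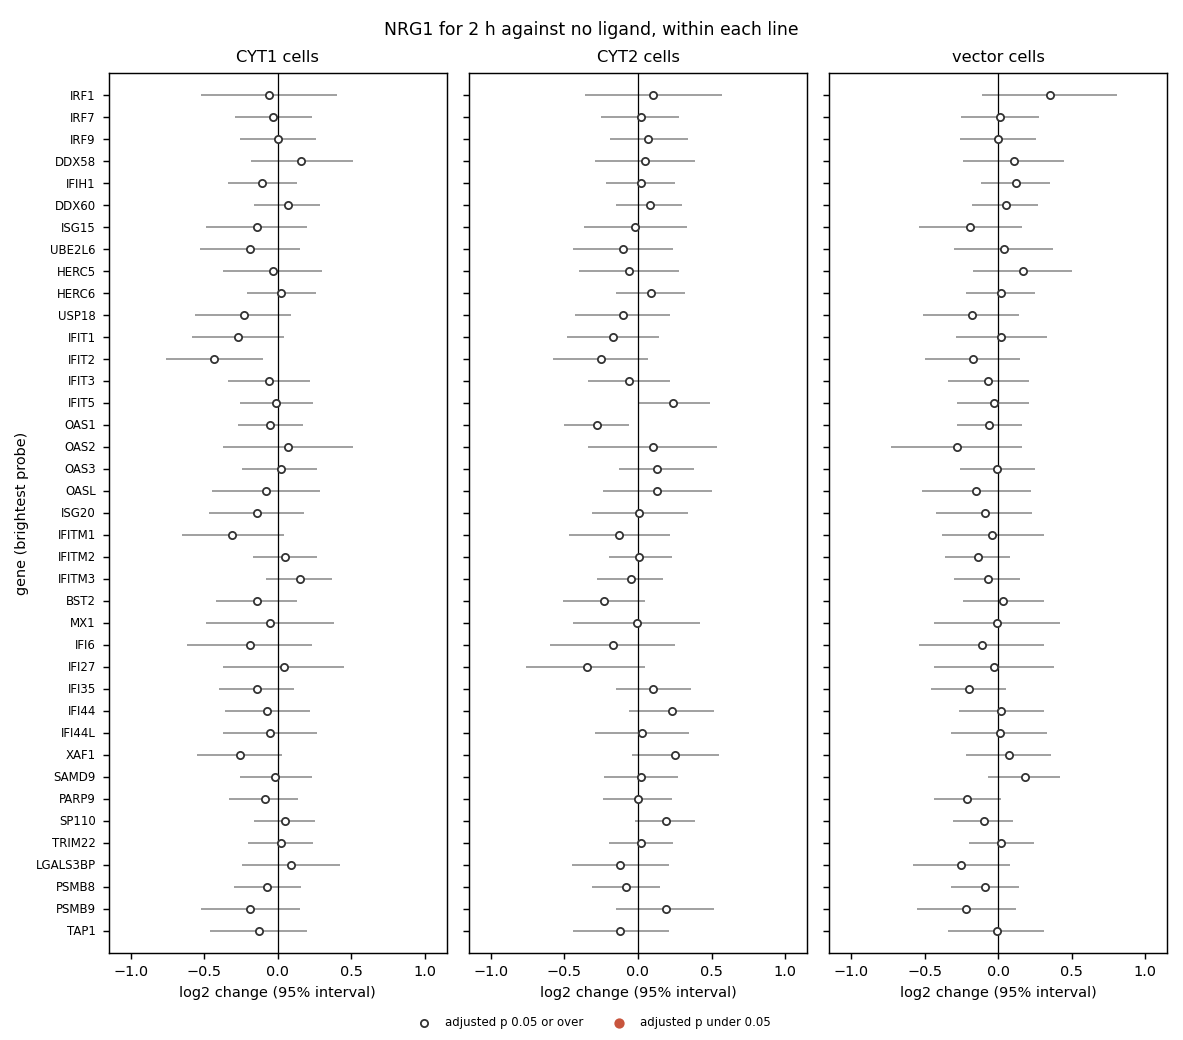
Log2 change with NRG1 for 2 h (points) and its 95% interval (lines) for the brightest probe of 39 genes in CYT1, CYT2 and vector cells, n = 2 samples per group. No point is filled, since none had a limma adjusted p under 0.05, and every interval stays between -1 and 1.

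The same probes were then compared between lines. With both ligand states averaged (n = 4 samples per line), 2 member probes fell in CYT2 cells relative to vector cells, BST2 and HERC6, and none rose. The share of all probes called was 1.16%. In CYT1 cells no member was called (0.447% of all probes), and at an unadjusted p under 0.05 there were 1 higher and 10 lower of 54 (14.4% of all probes passed, 1707 higher and 1608 lower). In CYT2 cells the unadjusted counts were 1 higher and 14 lower (13.5% of all probes, 1502 higher and 1616 lower). Both comparisons use the same 4 vector samples, so their counts are not independent of each other.

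BST2 (tetherin), a membrane protein that holds budding virions on the cell surface, measured 7.08 and 7.41 in CYT1 cells with NRG1 and 7.42 and 7.36 in CYT1 cells without ligand. It was 7.06 and 7.05 in CYT2 cells with NRG1 and 7.26 and 7.32 in CYT2 cells without. Vector cells gave 7.74 and 7.73 with NRG1 and 7.56 and 7.85 without. All 8 samples of the ERBB4 lines lay below all 4 vector samples. The mean was 7.17 ± 0.13 in CYT2 cells and 7.72 ± 0.12 in vector cells (SD, n = 4 each), a log2 difference of -0.55 ± 0.09 (SE; 95% interval -0.74 to -0.35), or 1.46-fold lower in CYT2 cells, with a limma adjusted p of 0.0107. In CYT1 cells the mean was 7.32 ± 0.16 and the difference -0.40 ± 0.09, which did not pass (limma adjusted p = 0.0794), although it did without the second CYT1 sample with NRG1 (-0.48; adjusted p = 0.0341), and it was -0.17 (0.213) on the authors' unnormalized values. The call in CYT2 cells ended without the second CYT2 sample with NRG1, the first CYT2 sample without ligand or the second vector sample with NRG1, at an adjusted p of 0.0525 to 0.0552 and differences of -0.55 to -0.53, and on the authors' unnormalized values the difference was -0.33 (adjusted p = 0.149).

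HERC6 belongs to the HECT ubiquitin ligases, and in mouse it is the main ligase that attaches ISG15. It measured 7.81 and 7.65 in CYT1 cells with NRG1 and 7.76 and 7.65 without ligand. The CYT2 values were 7.66 and 7.49 with NRG1 and 7.50 and 7.47 without, and the vector values 7.83 and 7.97 with NRG1 and 7.85 and 7.91 without. Each sample of either ERBB4 line was below each vector sample. The mean was 7.53 ± 0.08 in CYT2 cells and 7.89 ± 0.07 in vector cells (SD, n = 4 each), a log2 difference of -0.36 ± 0.08 (limma adjusted p = 0.043), while CYT1 cells differed from vector cells by -0.17 ± 0.08 (adjusted p = 0.329). The call rests on every sample, since leaving out any 1 of the 8 gave an adjusted p of 0.0684 to 0.217, with differences of -0.40 to -0.32, and on the unnormalized values the difference was -0.21 (adjusted p = 0.24).

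IFI27, a small hydrophobic interferon-induced protein, measured 5.72 and 6.07 in CYT1 cells with NRG1 and 5.83 and 5.88 without ligand. CYT2 cells gave 5.67 and 5.95 with NRG1 and 5.90 and 6.43 without, and vector cells 6.36 and 6.63 with NRG1 and 6.35 and 6.70 without. Its 4 CYT1 samples were below the vector samples, whereas the second CYT2 sample without ligand lay among them. The log2 difference from vector cells was -0.63 ± 0.13 in CYT1 cells (limma adjusted p = 0.0663) and -0.52 ± 0.13 in CYT2 cells (adjusted p = 0.0823). Both passed without 1 sample: -0.72 in CYT1 cells without the second sample with NRG1 (adjusted p = 0.0435), and -0.66 in CYT2 cells without the second sample without ligand (adjusted p = 0.0325). Both differences were -0.21 on the unnormalized values (adjusted p = 0.147 in CYT1 and 0.338 in CYT2 cells).

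A comparison of both ERBB4 lines together against vector cells (8 samples against 4), chosen after these values were seen, called BST2 and IFI27 lower and no member higher, where 1.5% of all probes were called. BST2 averaged 7.25 in the ERBB4 lines and 7.72 in vector cells (-0.47 ± 0.08; limma adjusted p = 0.00967). IFI27 averaged 5.93 and 6.51 in the same groups (-0.58 ± 0.12; adjusted p = 0.0275). HERC6 was -0.27 ± 0.07 (adjusted p = 0.0726). At an unadjusted p under 0.05, 13 of 54 member probes were lower and none higher. Of all 23019 probes, 1782 were lower and 1793 higher (15.5% in both directions together). The IFI27 call ended without any of 7 samples, at an adjusted p of 0.0504 to 0.181, and the BST2 call without the second vector sample with NRG1 (adjusted p = 0.0658). On the unnormalized values neither passed, at -0.21 for IFI27 (adjusted p = 0.139) and -0.25 for BST2 (adjusted p = 0.103).

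**Figure D3:**
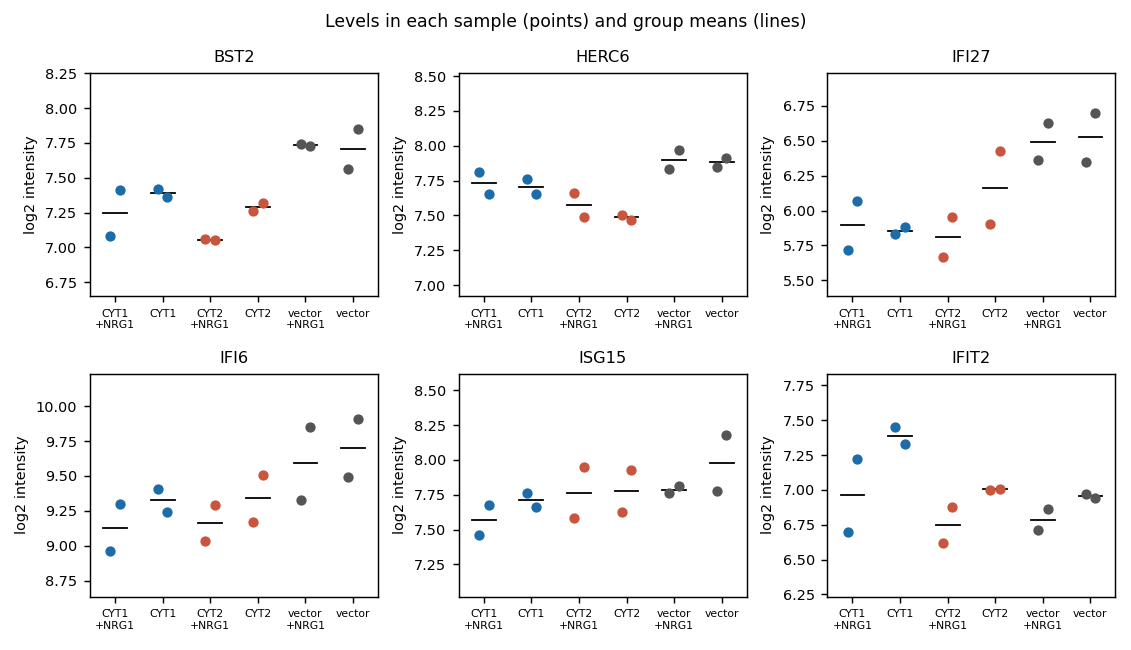
Log2 intensity of 6 members in each of the 12 samples (points) with group means (lines), CYT1 in blue, CYT2 in orange and vector in grey. All BST2 and HERC6 points of the ERBB4 lines lie below the vector points, IFI27 does so except for 1 CYT2 sample, and the groups overlap for IFI6, ISG15 and IFIT2.

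Beyond the called genes, most member probes had small negative differences from vector cells. In CYT1 cells 39 of 54 (72.2%) were below 0, with a median of -0.08 on the log2 scale, against 50.5% and 0 for all probes. In CYT2 cells 47 of 54 (87%) were below 0, with a median of -0.13, against 47.1% and 0.01. On the authors' unnormalized values the members' median was 0.03 in CYT1 cells and -0.05 in CYT2 cells, with medians of 0.06 and 0.02 for all probes, so the sign for CYT1 cells depends on the scaling. Every CYT1 sample was below every vector sample for 8 member probes (4.21% of all probes), every CYT2 sample for 7 (3.94%), and every sample of both for 2 (1.56%).

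Levels of these genes also differed between replicate samples. The second sample exceeded the first for 41 of 54 member probes in CYT1 cells with NRG1 and for 16 without ligand, for 31 and 32 in CYT2 cells with and without NRG1, and for 34 and 44 in vector cells with and without NRG1. Over all probes that share was 49.2% to 51.3% in each group. The median shift of the members between replicates was 0.12 in CYT1 cells with NRG1 and 0.12 in vector cells without ligand, beside median differences from vector cells of -0.08 and -0.13, and its part in those was not tested.

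Among the signalling factors, IRF9, the DNA-binding subunit of ISGF3, measured 8.19 and 8.39 in CYT1 cells with NRG1 and 8.30 and 8.28 without. It was 8.24 and 8.44 in CYT2 cells with NRG1 and 8.17 and 8.37 without, and 8.42 and 8.43 in vector cells with NRG1 and 8.32 and 8.52 without. These groups overlapped, and the differences from vector cells were -0.13 ± 0.09 in CYT1 and -0.12 ± 0.09 in CYT2 cells (limma adjusted p = 0.504 and 0.609).

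IRF7, the factor that amplifies interferon production, measured 5.93 and 6.21 in CYT1 cells with NRG1 and 6.04 and 6.16 without. The CYT2 values were 6.27 and 6.42 with NRG1 and 6.23 and 6.43 without, and the vector values 6.39 and 6.30 with NRG1 and 6.36 and 6.30 without. Its 4 CYT1 samples were the lowest of the 12, and the difference from vector cells was -0.25 ± 0.09 (limma adjusted p = 0.218), while CYT2 cells differed by 0 ± 0.09 (adjusted p = 0.999). IRF1 differed by -0.09 ± 0.15 in CYT1 cells and -0.18 ± 0.15 in CYT2 cells.

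The RNA sensors DDX58 (RIG-I, listed as RIGI in current annotation) and IFIH1 (MDA5), with the helicase DDX60, ranged from -0.24 to 0.15 in CYT1 cells and from -0.30 to -0.01 in CYT2 cells relative to vector cells. DDX60 measured 6.48 and 6.49 in CYT1 cells with NRG1 and 6.47 and 6.37 without. It was 6.21 and 6.15 in CYT2 cells with NRG1 and 6.14 and 6.07 without, and 6.44 and 6.49 in vector cells with NRG1 and 6.32 and 6.52 without. The 4 CYT2 samples were below the other 8, with a difference from vector cells of -0.30 ± 0.07 that did not pass (limma adjusted p = 0.0735).

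ISG15 itself, the ubiquitin-like modifier, measured 7.46 and 7.68 in CYT1 cells with NRG1 and 7.76 and 7.66 without. In CYT2 cells it was 7.58 and 7.95 with NRG1 and 7.63 and 7.93 without, and in vector cells 7.76 and 7.81 with NRG1 and 7.78 and 8.18 without. The CYT2 and vector samples overlapped, the CYT1 samples sat at or below the lowest vector sample, and the differences from vector cells were -0.24 ± 0.11 in CYT1 and -0.11 ± 0.11 in CYT2 cells (limma adjusted p = 0.351 and 0.722). Its conjugating enzyme UBE2L6, its ligase HERC5 and its protease USP18 lay between -0.22 and 0.16 in both ERBB4 lines, none past the test. USP18 was detected on 16 of 24 arrays.

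In the IFIT family, whose products bind viral RNA, the differences from vector cells ran from -0.07 to 0.30 in CYT1 cells and from -0.25 to 0.02 in CYT2 cells over 6 probes of 4 genes. IFIT2 was the highest in CYT1 cells (7.18 ± 0.33 against 6.87 ± 0.12 in vector cells, SD, n = 4 each; 0.30 ± 0.11, limma adjusted p = 0.221), and its groups overlapped. The 3 probes of IFIT3 gave -0.25, -0.23 and 0.02 in CYT2 cells and disagreed in sign. The 2′-5′ oligoadenylate synthetases OAS1, OAS2 and OAS3, with OASL and the exonuclease ISG20, had 7 probes, of which 5 were below 0 in CYT1 cells and 7 in CYT2 cells (medians -0.11 and -0.21). None passed, and OAS2 was detected on 8 arrays only.

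The membrane proteins IFITM1, IFITM2 and IFITM3 restrict virus entry. IFITM1 measured 5.48 and 6.02 in CYT1 cells with NRG1 and 6.05 and 6.07 without. The CYT2 values were 6.28 and 6.36 with NRG1 and 6.32 and 6.58 without, and the vector values 5.96 and 6.21 with NRG1 and 6.07 and 6.18 without. All 4 CYT2 samples were above the other 8, by 0.28 ± 0.11 over vector cells (limma adjusted p = 0.288). Every CYT2 sample was above every vector sample for 1 of 54 member probes and for 986 of all 23019 probes, so such a separation was not particular to members. IFITM2 and IFITM3 were read between 13.02 and 13.22 and between 12.47 and 12.74 in the 12 samples and differed from vector cells by -0.12 to -0.03.

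The dynamin-like GTPase MX1 measured 5.62 and 6.08 in CYT1 cells with NRG1 and 5.85 and 5.95 without. It was 5.47 and 6.17 in CYT2 cells with NRG1 and 5.79 and 5.88 without, and 5.85 and 5.83 in vector cells with NRG1 and 5.71 and 5.99 without. The lowest and the highest of the 12 values were both from CYT2 cells with NRG1, and the line differences were 0.03 ± 0.14 in CYT1 and -0.02 ± 0.14 in CYT2 cells (limma adjusted p = 0.945 and 0.977).

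IFI6, a small membrane protein with an antiviral and anti-apoptotic role, measured 8.96 and 9.30 in CYT1 cells with NRG1 and 9.41 and 9.24 without. CYT2 cells gave 9.03 and 9.29 with NRG1 and 9.17 and 9.51 without, and vector cells 9.33 and 9.85 with NRG1 and 9.49 and 9.91 without. The vector value of 9.33 lay within the range of both ERBB4 lines, and that of 9.49 within the range of CYT2 cells. Its differences were -0.42 ± 0.14 in CYT1 and -0.39 ± 0.14 in CYT2 cells (limma adjusted p = 0.2 and 0.218), and its second probe gave -0.34 and -0.23. The 18 probes of 12 effector genes, IFI6, IFI27 and MX1 included, were below 0 for 14 probes in CYT1 cells and for 18 in CYT2 cells, with medians of -0.06 and -0.14.

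For antigen processing, the peptide transporter TAP1 measured 9.77 and 10.34 in CYT1 cells with NRG1 and 10.26 and 10.11 without. It was 10.16 and 10.04 in CYT2 cells with NRG1 and 10.20 and 10.24 without, and 10.06 and 10.08 in vector cells with NRG1 and 10.10 and 10.06 without. Differences from vector cells were 0.04 ± 0.11 and 0.08 ± 0.11 in CYT1 and CYT2 cells (limma adjusted p = 0.895 and 0.801). The immunoproteasome subunits PSMB8 and PSMB9 had 6 probes between -0.20 and 0.06 in either line.

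**Figure D4:**
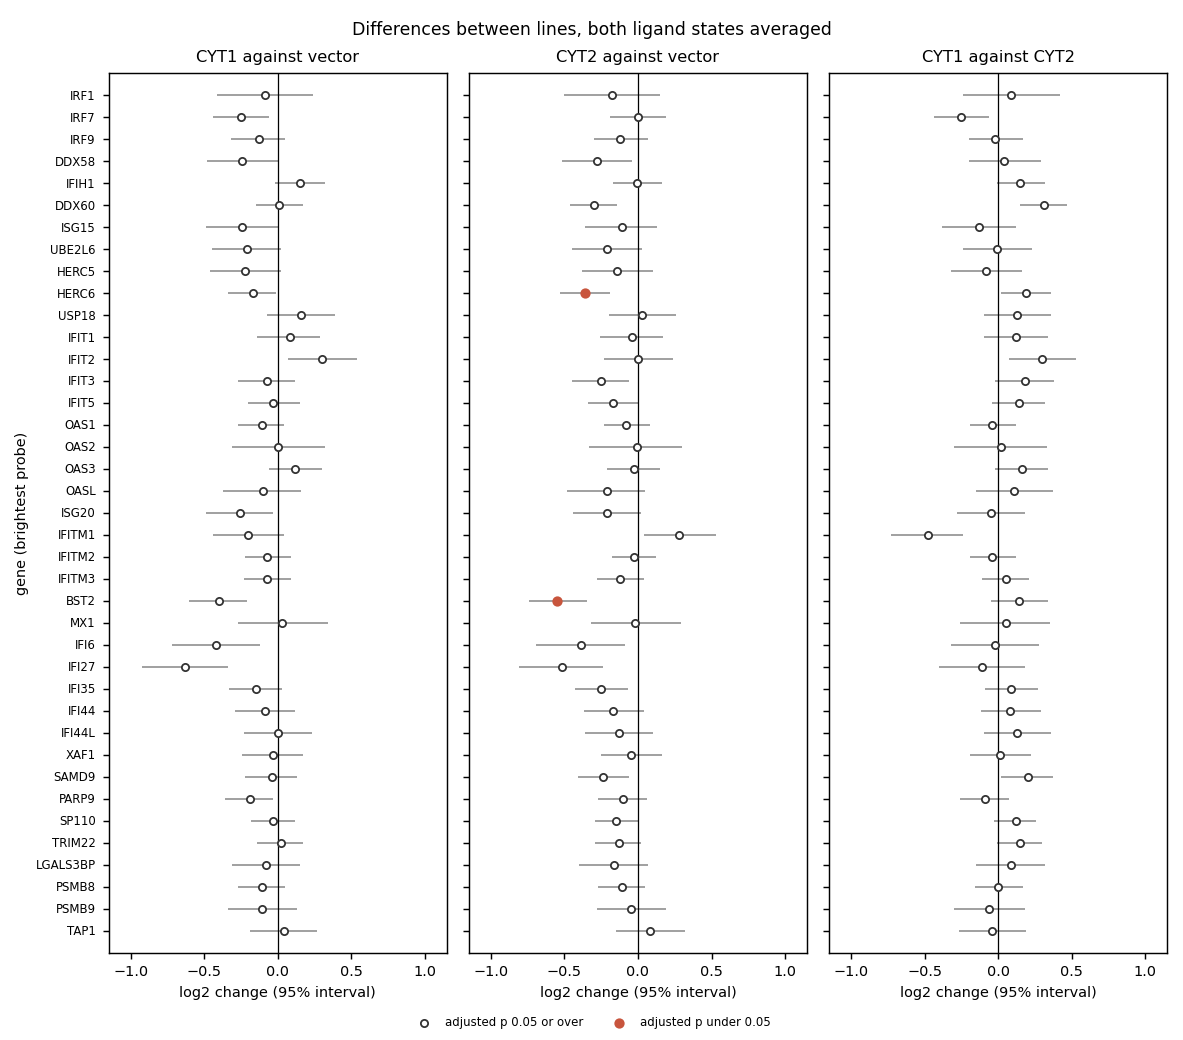
Log2 difference (points) and its 95% interval (lines) for the brightest probe of 39 genes, with both ligand states averaged, n = 4 samples per line. Filled points, HERC6 and BST2 in CYT2 against vector cells, had a limma adjusted p under 0.05, and points left of 0 outnumber those right of 0 in both comparisons with vector cells.

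Between the isoforms, no member passed when CYT1 cells were set against CYT2 cells with ligand averaged (0% of all probes). At an unadjusted p, 5 member probes were higher and 2 lower (8.43% of all probes). IFITM1 differed by -0.48 ± 0.11 (95% interval -0.73 to -0.24; limma adjusted p = 0.556), and DDX60 by 0.31 ± 0.07 (0.15 to 0.47; adjusted p = 0.556). Neither gene overlapped between the isoforms, but how many of all probes did the same was not counted for this comparison. The IFITM1 difference was -0.61, past the threshold at an adjusted p of 0.0382, when the second CYT1 sample with NRG1 was left out, and -0.16 (adjusted p = 0.55) on the unnormalized values. For BST2 the isoforms differed by 0.14 and for HERC6 by 0.19 ± 0.08 (adjusted p = 0.585).

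Within a single ligand state, no member passed. With NRG1, CYT1 against vector cells gave 4 lower at an unadjusted p (7.78% of all probes in both directions together, with 0.00869% called after adjustment). CYT2 against vector cells gave 6 lower (8% and 0.239%). Of all 23019 probes, 958 were lower in CYT1 and 960 in CYT2 cells. Without ligand, CYT1 against vector cells gave 2 higher and 5 lower (12.4% and 0.117%), and CYT2 against vector cells gave 8 lower (13.3% and 1.08%). Of all probes, 1412 were then lower in CYT1 and 1554 in CYT2 cells. BST2 differed from vector cells by -0.49 with NRG1 and -0.31 without ligand in CYT1 cells, and by -0.68 and -0.41 in CYT2 cells. The CYT2 difference with NRG1 had a limma adjusted p of 0.0574.

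The differences are given by promoter motif as a description, with no test. In CYT2 against vector cells, 19 of 21 motif genes with a measured probe were below 0 with a median of -0.14, and 11 of 11 genes without it were, with a median of -0.15. In CYT1 cells the counts were 14 of 21 (median -0.07) and 11 of 11 (median -0.11).

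The wider pathway was read from 6 further lists. Of 9 interferon ligand genes, IFNE alone passed detection, and neither of its 2 probes was called in any comparison. None of 13 probes for 9 receptor and kinase genes (IFNAR1, IFNAR2, JAK1 and TYK2 among them) and none of 8 probes for 7 negative regulators passed in any comparison. IFNAR1, 1 chain of the type I receptor, measured 7.04 and 7.45 in CYT1 cells with NRG1 and 7.41 and 7.28 without. It was 7.20 and 7.40 in CYT2 cells with NRG1 and 7.48 and 7.37 without. Vector cells gave 7.44 and 7.47 with NRG1 and 7.58 and 7.44 without, and these ranges overlapped. Without ligand, 1 probe of IFNAR2 measured 6.24 and 6.03 in CYT2 cells, against 6.51 and 6.56 in vector cells. That difference of -0.40 did not pass (limma adjusted p = 0.11).

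Of 13 probes for 10 sensing and adaptor genes, 1 passed, for TICAM1, the adaptor of the double-stranded RNA receptor TLR3. TICAM1 measured 9.91 and 9.54 in CYT2 cells with NRG1, against 9.12 and 8.68 in CYT2 cells without ligand, while CYT1 cells had 9.58 and 9.99 with NRG1 and 9.44 and 9.36 without, and vector cells 9.98 and 9.77 with NRG1 and 9.92 and 9.81 without. It rose by 0.83 ± 0.17 with NRG1 in CYT2 cells (limma adjusted p = 0.0445), where 0.977% of all probes were called. It differed between CYT2 and vector cells, both without ligand, by -0.96 ± 0.17 (adjusted p = 0.0227), where 1.08% were called. Leaving out 1 of 3 CYT2 samples ended the first call (adjusted p = 0.055 to 0.499), and 1 of 3 samples the second (0.088 to 0.156), as did the unnormalized values (-0.80; 0.138). Its other probe passed neither (0.55, adjusted p = 0.368, and -0.84, adjusted p = 0.0842).

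In the list of 24 further interferon-stimulated genes with 34 probes, GBP1, a guanylate-binding GTPase strongly induced by interferon gamma, showed the largest contrasts. It measured 8.88 and 8.77 in CYT1 cells with NRG1, against 8.47 and 8.44 without. In CYT2 cells it was 8.99 and 9.01 with NRG1, against 8.14 and 8.36 without, and in vector cells 8.94 and 9.01 with NRG1, against 9.14 and 9.43 without. The ERBB4 lines were thus lower than vector cells without ligand, by -0.83 ± 0.12 in CYT1 (limma adjusted p = 0.0341) and by -1.04 ± 0.12 in CYT2 cells (adjusted p = 0.00202). Of all probes, 0.117% and 1.08% were called there. The second GBP1 probe differed by -0.45 in CYT1 (adjusted p = 0.283) and by -0.82 in CYT2 cells (adjusted p = 0.034). No difference from vector cells passed with NRG1. NRG1 raised GBP1 by 0.75 ± 0.12 in CYT2 cells (adjusted p = 0.0104; 0.977% of all probes called), and its second probe gave 0.74 (adjusted p = 0.0474). Leaving out any 1 of the 4 CYT2 samples ended this call for the brighter probe (adjusted p = 0.0581 to 0.0953), and 1 of 3 samples the CYT1 difference without ligand (0.0615 to 0.357). On the unnormalized values the differences without ligand were -0.52 in CYT1 (adjusted p = 0.154) and -0.83 in CYT2 cells (0.0531). With ligand averaged, 3 of the 34 probes were lower in CYT2 than in vector cells (GBP1, GBP2 and TNFSF10; 1.16% of all probes were called), 1 was in CYT1 cells (GBP1; 0.447%), and none was higher in either. The averaged GBP1 difference was -0.51 in CYT2 and -0.49 in CYT1 cells (adjusted p = 0.0109 and 0.0278), and leaving out 1 of 3 samples ended the CYT2 call (0.0543 to 0.0662) and 1 of 6 the CYT1 call (0.0563 to 0.156). On the unnormalized values they were -0.37 and -0.28 (adjusted p = 0.183 and 0.143), and the second probe passed in neither line (-0.39, adjusted p = 0.124, and -0.19, adjusted p = 0.463).

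GBP2, its relative, measured 8.93 and 8.82 in CYT1 cells with NRG1 and 8.96 and 8.87 without, 8.89 and 8.67 in CYT2 cells with NRG1 and 8.51 and 8.88 without, and 9.30 and 9.49 in vector cells with NRG1 and 9.12 and 9.58 without. All samples of the ERBB4 lines were below all vector samples, and the difference was -0.64 ± 0.12 in CYT2 cells (limma adjusted p = 0.0181). For TNFSF10, the death ligand TRAIL, CYT2 cells differed from vector cells by -0.58 ± 0.13 (adjusted p = 0.0482). Leaving out 1 of 4 samples ended the GBP2 call (adjusted p = 0.0603 to 0.105), and 1 of 7 the TNFSF10 call (0.0727 to 0.206). Neither passed on the unnormalized values (-0.49, adjusted p = 0.185, for GBP2 and -0.34, adjusted p = 0.297, for TNFSF10).

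Among 20 probes of 12 MHC class I and antigen processing genes, HLA-B, a classical class I heavy chain, was called. It measured 7.74 and 7.34 in CYT1 cells with NRG1 and 7.36 and 7.30 without, 7.28 and 7.19 in CYT2 cells with NRG1 and 6.99 and 7.02 without, and 7.64 and 7.78 in vector cells with NRG1 and 7.72 and 7.78 without. The CYT2 samples were the lowest of each ligand state, 1.53-fold below vector cells on average (-0.61 ± 0.09; limma adjusted p = 0.0046; 1.16% of all probes called). On the unnormalized values the difference was -0.36 and did not pass (adjusted p = 0.129). HLA class I genes are close in sequence, so signal from related genes in the HLA-B probe cannot be told apart. In the comparison of both ERBB4 lines together, HLA-B (-0.45; adjusted p = 0.0116), 1 probe of HLA-F (-0.36; 0.0359), GBP1 (-0.50; 0.00493) and GBP2 (-0.56; 0.0151) were called lower by limma. No gene of the 6 lists was called higher, and 1.5% of all probes were called. The other probes of HLA-F and GBP1 gave -0.29 each and did not pass (adjusted p = 0.0701 and 0.167). HLA-B, GBP1 and GBP2 did not pass on the unnormalized values (-0.23, -0.32 and -0.38; adjusted p = 0.102 to 0.127). Without the second vector sample with NRG1 the HLA-B call (adjusted p = 0.102) and the GBP2 call (0.118) ended, and the GBP2 call also ended without the second vector sample without ligand (0.056).

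**Figure D5:**
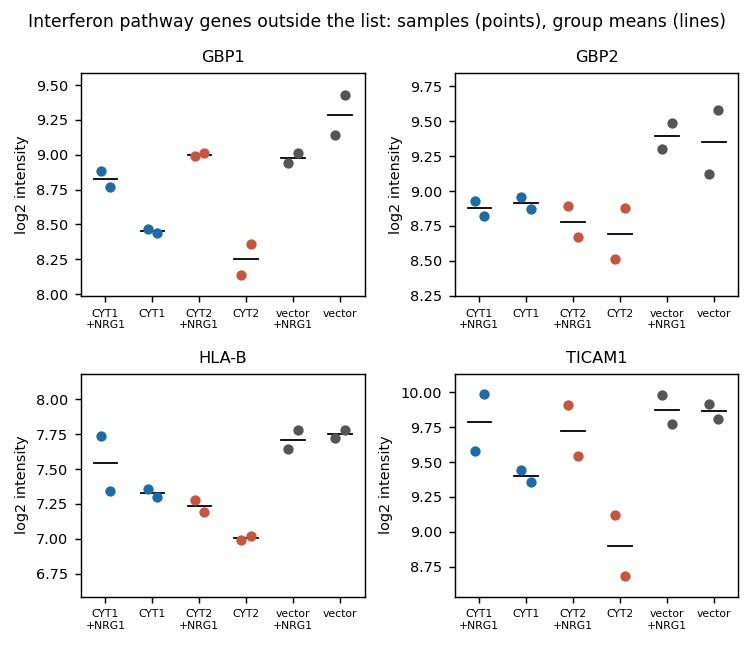
Log2 intensity of GBP1, GBP2, HLA-B and TICAM1 in each of the 12 samples (points) with group means (lines), CYT1 in blue, CYT2 in orange and vector in grey. GBP1 is lowest in the ERBB4 lines without ligand, GBP2 is below vector cells in all 8 samples of those lines, and TICAM1 is lowest in the 2 CYT2 samples without ligand.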

How the data were processed

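RNA was measured on Illumina BeadChips. Per the file headers, the deposited scanner table holds an intensity (bead signal) and a detection p-value per probe. The log2 values in the authors' table equalled log2 of those signals to within 5.0e-09, so the authors deposited no normalized values. The scanner software is not given in the sources used here, and no chip or slide is named, so none could be tested as a batch.

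Background correction and quantile normalization used neqc (offset 16, negative controls inferred from detection p-values) in limma 3.58.1 (R 4.3.3). Probes with a detection p under 0.05 on at least 4 of 24 arrays were kept. Technical arrays were averaged, with a root mean square difference of 0.15 to 0.26 over members within a sample. The 12 samples were fitted together, with 1 mean for each of 6 groups (lmFit and eBayes, 6 residual and 6.82 prior degrees of freedom), without a replicate block. The Benjamini-Hochberg adjustment ran over 23019 probes, and the threshold was 0.05. The fit was tested on simulated data. Where a gene has several probes, the brightest is given first.

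Members and pathway lists were chosen with earlier results of these data known. Values per sample are given for members past the threshold and for IRF9, IRF7, IRF1, ISG15, MX1, IFI6, IFI27 and TAP1. IFIT2, DDX60 and IFITM1 were added after their values were seen, and up to 4 genes past the threshold are named from each pathway list, IFNAR1 and IFNAR2 being added. Probes of PSMB8, IFIT3 and OAS2 that passed were below detection on every array of at least 1 group, where a level is only a bound. Replicate numbers were checked as pairs: over all probes, deviations of same-numbered samples correlated between -0.14 and 0.23 across groups. That does not settle whether the numbers pair samples. Sample 2 exceeded sample 1 in 6 groups for IFI27, IFITM1, 1 probe of IFI6 and 1 of SP110. It did so in only 1 group for OASL and 1 probe of IFIT3. Alternatives covered normalization, detection filters, 1 probe per gene, single technical arrays, the fit and leaving out each sample. The number of arrays limits the precision. STAT2, KRT17, KRT6A and TP63 were not analysed here.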

Additional observations from a re-analysis of the deposited data

Results flagged for a closer look

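The response of GBP1 to NRG1 differed between CYT2 and vector cells by an interaction term in limma. GBP1 changed by 0.75 on the log2 scale in CYT2 cells and the difference in response was 1.06 ± 0.17 (SE; n = 2 samples per group; limma adjusted p = 0.0358), where 0.122% of all probes passed. Both CYT2 samples with NRG1 (8.99 and 9.01) were above both without (8.14 and 8.36), whereas both vector samples with NRG1 (8.94 and 9.01) were below both without (9.14 and 9.43). The call ended without any 1 of the 8 samples except the first vector sample without ligand, at an adjusted p of 0.0831 to 0.164. It also ended on the authors' unnormalized values (0.92; adjusted p = 0.216), and the second GBP1 probe did not pass (0.84 ± 0.22; adjusted p = 0.291), its vector samples overlapping with NRG1 (8.03 and 8.28) and without (8.13 and 8.38).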

How the results depend on the processing

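Of 40 single-gene values under 745 settings in all, 589 kept their direction and side of the threshold. A further 120 lost the threshold, 36 gained it and 0 reversed. The median of the member probes did change sign with the setting in some comparisons. It ran from -0.12 to 0.03 for CYT1 against vector cells, ligand averaged, and from -0.05 to 0.11 for NRG1 in CYT2 cells. For CYT2 against vector cells, ligand averaged, it stayed below 0, at -0.16 to -0.05. The number of member probes called was 0 under each setting for NRG1 in each line and for the 3 differences between lines in the NRG1 change. For CYT2 against vector cells, ligand averaged, the 2 calls became 0 on the authors' unnormalized values and on technical array 2 only, 1 with no filter on dim probes, with technical array 1 only and with only the groups of the comparison, and 6 with all 24 arrays and sample as a random block. DDX60 joined the 2 calls with probes detected on all 24 arrays (limma adjusted p = 0.0434) or 1 probe per gene (0.044). IFI27 joined them with trended robust eBayes (adjusted p = 0.0457). Leaving out 1 sample gave 0 to 2. For both ERBB4 lines against vector cells, a comparison and its settings chosen after seeing the data, the 2 calls became 0, 1, 1, 0 and 4 on the unnormalized values, without the filter, on technical array 1, on array 2 and with all 24 arrays, and 0 to 2 without 1 sample. They became 3, HERC6 being added, under quantile normalization without background correction, with probes detected on all 24 arrays, 1 probe per gene or trended robust eBayes (HERC6 adjusted p = 0.0283 to 0.0468). The 0 calls for CYT1 against vector cells, ligand averaged, became 1 under quantile normalization without background correction, 1 probe per gene or only the groups of the comparison, 2 with trended robust eBayes, 3 with all 24 arrays and up to 2 without 1 sample. For CYT2 against vector cells with NRG1 they became 1 with probes detected on all 24 arrays, 1 probe per gene or trended robust eBayes and 2 with all 24 arrays, and without ligand 1 under quantile normalization alone and 3 with all 24 arrays. CYT1 against vector cells with or without NRG1 and CYT1 against CYT2 cells each gave 1 with all 24 arrays, and the last 1 without 1 CYT1 sample. The cause was not tested.

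The replicate block uses numbers that may only name samples. With it, counts were 1 for CYT1 against vector cells and 2 for CYT2 against vector cells with NRG1, 3 for CYT2 against vector cells and for both lines with ligand averaged, and 0 elsewhere. IFI27 passed with the block in CYT1 (-0.63; limma adjusted p = 0.00578) and CYT2 cells (-0.52; 0.0094) against vector cells. Crossing the numbers of CYT1 cells without ligand, where the correlation was -0.14, gave 0 member calls and 0 over all probes for NRG1 in CYT1 cells, against 16 over all probes with the block as numbered.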
